A study of Homo sapiens with 12 samples.

Results

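The ISG15 conjugation system was followed in NS-SV-AC cells, an established human salivary gland acinar line, through the messenger RNA of 6 genes. They were taken by name: ISG15, the modifier; UBA7, its activating enzyme (E1); UBE2L6, its conjugating enzyme (E2); HERC5, its main ligase (E3); HERC6, the closest relative of HERC5; and USP18, the protease that removes ISG15 again. All 6 were found among 60609 annotated genes, and all 6 were among the 17185 genes tested, those with a TPM (transcript abundance per length, scaled to a fixed library total) of at least 1 in at least 2 libraries. The study addresses double-stranded RNA of mitochondrial origin in Sjögren's syndrome, and its 12 libraries formed 6 groups of 2 replicates. Cells received DMSO (the solvent control), 2-CM (an adenosine analogue that the series' design spells 2-C'-Methyladenosine) or RES (resveratrol). Each was followed by transfection of poly I:C, which is double-stranded RNA made in vitro, or by the control that the labels name depc. The compounds were given at 20, in a unit printed as μm and read here as micromolar, 24 h ahead of transfection and once more together with it. Poly I:C acted for 14 h and growth lasted 48 h. All groups come from this single line, and nothing in the labels says whether replicates were separate cultures, so p-values measure only the spread between these libraries, which may be technical.

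ISG15 is a ubiquitin-like protein that interferon-treated cells make in large amounts and attach to many newly made proteins. Attachment runs through the same kind of cascade as ubiquitin: UBA7 activates ISG15, UBE2L6 receives it, and HERC5, which sits on ribosomes, passes it to the target. USP18 cuts ISG15 from its targets and also binds the interferon receptor, where it dampens signalling. Interferon acts on such genes mainly through a complex with STAT2 and IRF9 that binds a DNA element called ISRE. In humans HERC5 is the main ligase known for ISG15, and HERC6 is its neighbour on the chromosome.

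In short, ISG15, UBE2L6 and USP18 rose with poly I:C under all 3 compounds. UBE2L6 lost its call under upper-quartile and median-of-ratios scaling in each. It also lost it in fits with a library left out, in most under RES and in some under DMSO and 2-CM. ISG15 lost its call under 2-CM and RES in some fits with a library left out, and under RES with median-of-ratios scaling. HERC5 was called under DMSO and 2-CM, and lost each call in some fits with a library left out. Under RES HERC5 did not pass (2.08), but it did under both scalings, after GC adjustment and in the authors' deposited table. HERC6 and UBA7 passed the test under 2-CM, where 37.5% of all genes were called higher and UBA7 was near the median of all genes. Both lost that call in some fits with a library left out, and UBA7 also under both scalings. Neither passed under DMSO or RES, although after GC adjustment both did under DMSO and HERC6 did under RES. Fits of only the groups compared called 0 members under DMSO and 0 under RES. No member passed a test for a difference between compounds, except under alternative settings: after GC adjustment UBA7 and HERC5 did so for RES against DMSO with depc, and a replicate block chosen after seeing the data called others. ISG15 held a larger share of the summed RNA of the set with poly I:C and UBE2L6 a smaller one, and the share of short transcripts in UBA7 was higher with poly I:C under all 3 compounds. In bulk RNA, fewer responding cells and less RNA per responding cell cannot be told apart.

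Of 10 markers of the labelled acinar type, SLC12A2 alone reached 1 TPM in every library (1.30 to 8.11 TPM), and AQP5 and MUC7 were listed at 0 in all 12. Of 6 epithelial markers, the keratins KRT8 and KRT18 were high, with lowest values of 630 and 466 TPM, while EPCAM, CDH1, KRT19 and KRT7 reached at most 1.23, 0.596, 0.243 and 2.16 TPM. The leukocyte markers PTPRC, CD3E and MS4A1 were listed at 0 throughout, but CD14 was at 7.05 to 15.8 TPM and ITGAX reached 2.57 TPM. No endothelial marker reached 1 TPM. Of 5 fibroblast markers, COL1A1 (15.9 to 100 TPM), COL3A1 and LUM reached 1 TPM in every library and DCN in some. PDGFRA stayed at or under 0.0813 TPM. Of 5 basal or myoepithelial markers, ACTA2 and CNN1 had lowest values of 13.5 and 1.56 TPM. KRT5 and KRT14 were listed at 0 throughout, and TP63 reached at most 0.0434 TPM. The summed leukocyte markers were 8.90 to 19.1 TPM in the depc libraries and 7.87 to 15.4 TPM in the poly I:C libraries. The summed epithelial markers were 1680 to 3530 TPM and 1100 to 1730 TPM, respectively, and their part in the results below was not tested. Estimated reads per library ran from 31.2 M to 49.4 M. Replicates of a group differed along the GC content of genes, with a Spearman correlation across genes of -0.431 to -0.78 between GC content and replicate 1 minus replicate 2 in 5 groups and of 0.77 in RES poly I:C. The exonic GC content was 63.4% for ISG15, higher than that of 94.7% of tested genes, and 43.1% and 45.1% for HERC5 and HERC6. The part of GC content in the members' replicate gaps was not tested.

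The promoters are shown first because the genes differ in whether they hold the core of the ISRE. Windows from 250 bases before to 50 after the RefSeq start (GRCh38.p14) were at hand for 4 of the 6 members. UBA7 and USP18 had none. Capitals mark each match to GAAANNGAAA, searched on both strands; the remaining bases are in lower case, 5′ to 3′ along the gene. The first 2 windows, of ISG15 (chr1:1013247-1013546, plus strand) and HERC5 (chr4:88456869-88457168, plus strand), hold matches. The windows of UBE2L6 (chr11:57567623-57567922, minus strand, at the start of its leading transcript) and HERC6 (chr4:88378602-88378901, plus strand) hold none.
ISG15: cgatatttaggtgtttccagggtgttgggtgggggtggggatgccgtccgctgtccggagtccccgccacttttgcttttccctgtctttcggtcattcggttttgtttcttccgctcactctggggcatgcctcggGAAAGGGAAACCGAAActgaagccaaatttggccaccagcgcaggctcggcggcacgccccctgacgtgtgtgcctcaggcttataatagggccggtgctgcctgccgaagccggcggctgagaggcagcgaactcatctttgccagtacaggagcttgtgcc
HERC5: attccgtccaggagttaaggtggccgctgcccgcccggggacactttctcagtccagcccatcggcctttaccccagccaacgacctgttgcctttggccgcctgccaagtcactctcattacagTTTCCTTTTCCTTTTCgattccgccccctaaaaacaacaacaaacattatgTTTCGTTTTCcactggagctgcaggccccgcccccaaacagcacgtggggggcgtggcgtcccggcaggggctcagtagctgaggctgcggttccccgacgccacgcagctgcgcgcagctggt
UBE2L6: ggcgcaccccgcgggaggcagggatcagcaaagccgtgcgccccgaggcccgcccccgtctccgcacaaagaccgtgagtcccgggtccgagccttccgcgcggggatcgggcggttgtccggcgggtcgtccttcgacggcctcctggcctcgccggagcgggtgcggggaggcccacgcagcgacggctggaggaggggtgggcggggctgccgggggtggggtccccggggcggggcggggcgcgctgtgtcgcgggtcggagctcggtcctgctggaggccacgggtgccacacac
HERC6: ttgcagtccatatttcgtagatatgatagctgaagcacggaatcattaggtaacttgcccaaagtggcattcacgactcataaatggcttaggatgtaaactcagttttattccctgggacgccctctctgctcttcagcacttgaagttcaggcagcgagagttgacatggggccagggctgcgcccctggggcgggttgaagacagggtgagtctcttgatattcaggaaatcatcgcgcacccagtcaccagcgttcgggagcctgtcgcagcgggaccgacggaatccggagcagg
In ISG15 a pair of matches overlapped on the gene's own strand, from -113 to -104 and from -107 to -98 relative to the start. In HERC5 all 3 matches lay on the other strand, an overlapping pair from -125 to -116 and from -119 to -110 and a single match from -74 to -65. The core occurred in 1255 of 35116 RefSeq promoter windows of this length (3.57%). A second element, GAS (TTCNNNGAA, in 7.66% of the windows), was in none of the 4. A match is a run of letters, not a bound site, and a window without a match says only that those letters are not in it.

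ISG15 (ENSG00000187608.10, chromosome 1, 1001138 to 1014540, plus strand) was, with UBE2L6, one of the most abundant members in every library. With depc it stood at 73.8 and 98.5 TPM in cells given DMSO, at 128 and 173 TPM in those given 2-CM and at 108 and 176 TPM in those given RES. Poly I:C libraries of the same order stood at 757 and 1149 TPM, at 894 and 1042 TPM and at 1075 and 887 TPM, each pair being replicates 1 and 2. Every poly I:C library lay far above every depc library, and the poly I:C groups overlapped each other. The log2 difference of ISG15 between poly I:C and depc, on the log2(TPM + 1) scale used throughout, was 3.44 (SE 0.30, adjusted p 0.00144) under DMSO. It was 2.69 (SE 0.30, adjusted p 0.00426) under 2-CM and 2.82 (SE 0.30, adjusted p 0.00748) under RES, all from limma. Ordered by mean, DMSO depc was lowest at 86.1 ± 17.4 TPM (SD, n = 2) and did not overlap RES depc, while RES depc and 2-CM depc overlapped. Between replicates of ISG15, replicate 1 minus replicate 2 was -0.70 to -0.22 on the log2 scale in 5 groups and 0.28 in RES poly I:C.

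Part of the ISG15 signal was assigned to a long annotated transcript (ENST00000624697.4) that starts far upstream. Its share of ISG15 TPM was 2.95% to 43.2% with depc and 5.94% to 24.8% with poly I:C. Its upstream exons were almost without reads: the depth per base of exon 1 was at most 0.986 and that of exon 2 at most 2.77 in any library. Its last exon, which it shares base for base with the main transcript ENST00000649529.1, was assigned up to 975. The reads of ISG15 thus fell on the exons of the short transcript, whose first exon (bases 1013497 to 1013576) had a median depth of 335 with depc and 1820 with poly I:C. Sums over transcripts, as used here, do not depend on how that last exon was split, except through the length each transcript is divided by. ISG15 shares 36 exonic bases, 4.15% of its own, with a gene on the opposite strand.

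UBA7 (ENSG00000182179.13, chromosome 3, 49805209 to 49813953, minus strand), which activates ISG15, moved least. It stood at 14.8 and 18.4 TPM in DMSO depc and at 21.8 and 26.1 TPM in DMSO poly I:C. Under 2-CM the levels of UBA7 were 18.6 and 22.8 TPM with depc and 29.1 and 39.1 TPM with poly I:C. Under RES they were 28.8 and 38.1 TPM with depc and 38.2 and 32.7 TPM with poly I:C. Depc and poly I:C groups were apart under DMSO and 2-CM and overlapped under RES, where depc was already at the level of the highest poly I:C groups. The log2 difference of UBA7 was 0.50 (95% interval -0.04 to 1.05, adjusted p 0.293) under DMSO and 0.09 (-0.46 to 0.64, adjusted p 0.888) under RES by limma. Under 2-CM it was 0.69 (0.14 to 1.23, adjusted p 0.0438), close to the median of all genes in that comparison, 0.61.

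The short annotated transcripts of UBA7 held a larger share of its TPM with poly I:C, a split that was looked at after the values were seen and is given without a test. UBA7 has 11 annotated transcripts: a full-length one of 24 exons (ENST00000333486.4) and 10 shorter ones, 9 of which the annotation (GENCODE 44) types as retained introns. Those 10 held 13.9% and 13.1% of UBA7 TPM in DMSO depc, 7.19% and 8.70% in 2-CM depc and 16.6% and 14.6% in RES depc. With poly I:C they held 25.5% and 25.1% under DMSO, 30.5% and 31.9% under 2-CM and 26.4% and 26.7% under RES. All 6 poly I:C libraries were above all 6 depc libraries, including those of RES, where the gene total did not separate. The full-length transcript of UBA7 went from 14.4 ± 2.27 to 17.9 ± 2.35 TPM (SD, n = 2) under DMSO, a ratio of 1.24. Under 2-CM it went from 19.1 ± 2.48 to 23.4 ± 4.50 TPM and under RES from 28.3 ± 6.06 to 26.0 ± 2.89 TPM. The other transcripts together went from 2.24 ± 0.247 to 6.05 ± 0.700 TPM under DMSO, from 1.66 ± 0.453 to 10.7 ± 2.56 TPM under 2-CM and from 5.16 ± 0.559 to 9.42 ± 0.962 TPM under RES. StringTie divides reads among overlapping transcripts, so these are estimates, and reads from unspliced RNA or from the opposite strand cannot be told apart from a retained intron. TPM divides reads by transcript length, 498 to 1037 bases for the short transcripts and 3304 for the full-length one. Reads moved to short transcripts thus raise the TPM of the gene by themselves. With estimated reads as CPM the log2 difference of UBA7 was 0.23 under 2-CM and 0.52 under DMSO. Such shares were not taken for all genes.

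**Figure D1:**
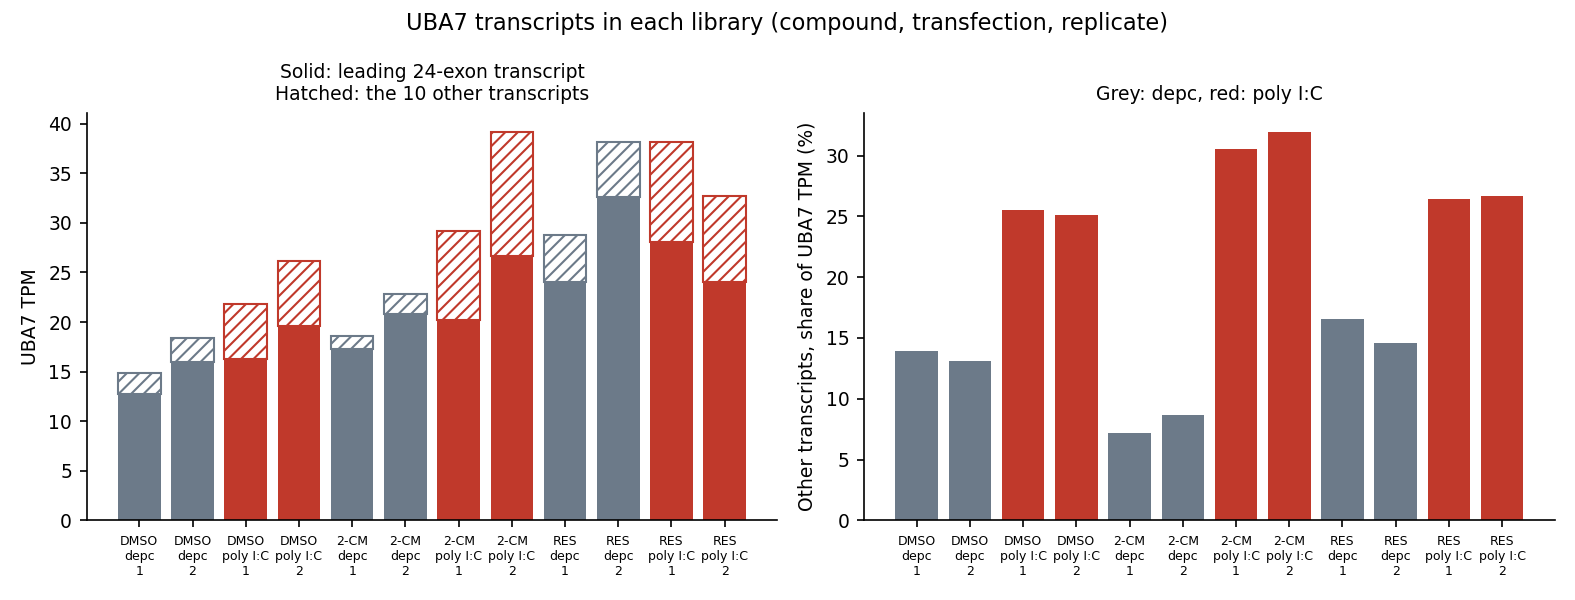
UBA7 TPM in each library, split on the left into the leading transcript (solid) and the 10 others (hatched), and on the right as the share of the others in percent; grey is depc and red is poly I:C. The share lies between 7.19% and 16.6% in the depc libraries and between 25.1% and 31.9% in the poly I:C libraries.

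UBE2L6 (ENSG00000156587.16, chromosome 11, 57551656 to 57568284, minus strand), the conjugating enzyme, had the smallest standard error of the members and a modest change. Its DMSO depc libraries held 131 and 130 TPM, its 2-CM depc libraries 162 and 156 TPM and its RES depc libraries 166 and 183 TPM. In the same order of compounds, the poly I:C libraries held 304 and 384 TPM, 357 and 379 TPM, and 335 and 347 TPM. The 3 depc groups were apart from each other, with DMSO lowest and RES highest. Of the poly I:C groups, DMSO overlapped both others, and 2-CM lay above RES. The log2 difference of UBE2L6 was 1.38 (SE 0.15, adjusted p 0.00472) under DMSO, 1.20 (SE 0.15, adjusted p 0.00674) under 2-CM and 0.96 (SE 0.15, adjusted p 0.0401) under RES by limma. A single transcript (ENST00000287156.9), the one whose promoter is printed above, held 87.8% to 94.6% of UBE2L6 TPM in every library.

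HERC5 (ENSG00000138646.9, chromosome 4, 88457119 to 88506163, plus strand), the ligase, was rare without poly I:C. Among depc libraries it reached 1.87 and 1.72 TPM with DMSO, 1.67 and 1.31 TPM with 2-CM and 7.38 and 3.75 TPM with RES. HERC5 in poly I:C libraries was at 25.8 and 11.7 TPM with DMSO, at 43.3 and 44.1 TPM with 2-CM and at 16.7 and 39.2 TPM with RES. No poly I:C library of HERC5 overlapped a depc library, RES depc lay above the other depc groups, and 2-CM poly I:C lay above both other poly I:C groups. The log2 difference was 2.72 (SE 0.47, adjusted p 0.0251) under DMSO, 4.17 (SE 0.47, adjusted p 0.00436) under 2-CM and 2.08 (SE 0.47, adjusted p 0.122) under RES by limma. The wide pairs, with log2 gaps of 1.08 in DMSO poly I:C and -1.19 in RES poly I:C, run against the gaps of ISG15 in the same groups (-0.60 and 0.28), as the GC contents do. In all libraries 95.6% or more of HERC5 TPM lay on 1 transcript (ENST00000264350.8), and its 23 exons were all covered with poly I:C, at median depths of 29.3 to 125 per base.

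HERC6 (ENSG00000138642.14, chromosome 4, 88378739 to 88443111, plus strand) ends 14007 bases upstream of HERC5 and was the least abundant member in every library but DMSO depc replicate 1, where HERC5 was lower. Its depc pairs were 2.21 and 1.03 TPM with DMSO, 1.06 and 0.832 TPM with 2-CM and 4.73 and 1.78 TPM with RES. Its poly I:C pairs were 6.86 and 3.30 TPM, 13.0 and 12.1 TPM, and 5.25 and 11.9 TPM. Within each compound the transfections did not overlap, although DMSO poly I:C overlapped RES depc. The log2 difference of HERC6 was 1.19 (95% interval 0.10 to 2.28, adjusted p 0.21) under DMSO and 1.17 (0.08 to 2.26, adjusted p 0.323) under RES by limma, neither of which passed. Under 2-CM it was 2.80 (1.71 to 3.89, adjusted p 0.0218). HERC6 rests on 78 to 1087 estimated reads per library, the fewest of the members. These few reads were split unevenly among its 8 transcripts: 7.79% to 17.3% of HERC6 TPM lay off the leading transcript ENST00000264346.11 in 8 libraries and 65.3% to 96.0% in the other 4, RES poly I:C replicate 2 among them. The gene total is therefore the quantity compared.

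The ratio of the HERC genes varied widely with depc and little with poly I:C. HERC5 was at 0.846 to 2.1 times the TPM of HERC6 in the depc libraries (median 1.57) and at 3.17 to 3.75 times (median 3.44) in the poly I:C libraries. The ranges did not overlap. The ratio was chosen after the values were seen and has no test.

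USP18 (ENSG00000184979.10, chromosome 22, 18150170 to 18177397, plus strand), the protease, showed the second-largest change after ISG15 under DMSO. The depc libraries had 11.3 and 8.28 TPM with DMSO, 12.1 and 9.28 TPM with 2-CM and 16.1 and 10.3 TPM with RES, and all 3 groups overlapped. USP18 after poly I:C was at 105 and 96.5 TPM, at 148 and 160 TPM, and at 88.3 and 138 TPM. The 2-CM poly I:C libraries were above the other poly I:C libraries, which overlapped. Between 2-CM and DMSO with poly I:C, however, USP18 had 0.61, beside 0.59 for the median of all genes, and its sign turned under both scalings. The log2 difference of USP18 was 3.25 (SE 0.29, adjusted p 0.00154) under DMSO, 3.74 (SE 0.29, adjusted p 6.1e-04) under 2-CM and 3.0 (SE 0.29, adjusted p 0.00466) under RES by limma. ISG15 and USP18, the modifier and its protease, had a ratio, ISG15 over USP18 in TPM, of 6.54 to 18.7 with depc (median 11.2) and of 6.05 to 12.2 with poly I:C (median 6.87), ranges that overlap. Under 2-CM they did not, with 10.6 and 18.7 in the depc and 6.05 and 6.51 in the poly I:C libraries. After GC adjustment, however, the log2 differences under 2-CM were 3.25 for ISG15 and 3.24 for USP18, beside 2.69 and 3.74 without it. The ratio has no test.

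USP18 has a partial copy, USP41, elsewhere on chromosome 22, to which reads were also assigned. USP41 was listed at 7.25% to 20.1% of the TPM of USP18. Its exons 11, 12 and 13 matched exons 8, 9 and 10 of USP18 with 0 mismatches over 168, 132 and 50 compared bases, and they reached depths of 126, 130 and 61.9 per base. The 5 USP41 exons that differ from their USP18 counterparts by 1 to 5 bases reached at most 12.3, and a pair with no close counterpart had practically no reads. The 3 exons of highest depth are the ones in which the genes cannot be told apart, so the source of their reads was not determined, and the values of both genes are uncertain to that extent. USP41 itself passed the test under DMSO (2.01, adjusted p 0.0314) and 2-CM (2.89, adjusted p 0.0088) by limma.

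**Figure D2:**
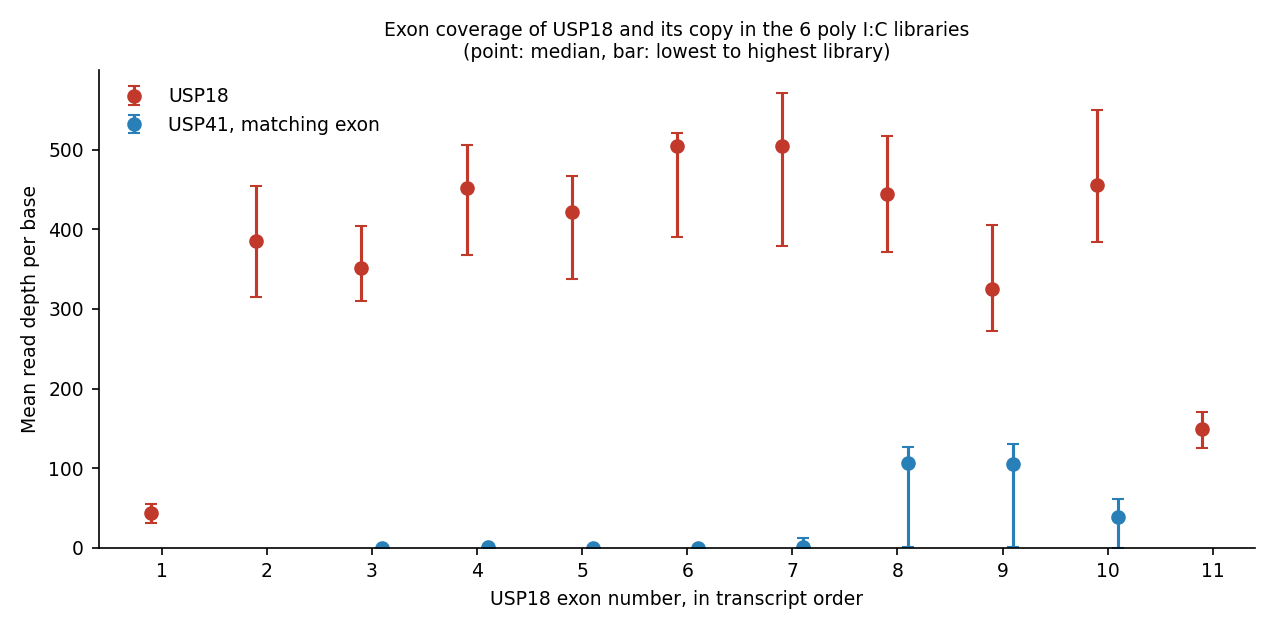
Mean read depth per base of the 11 USP18 exons (red) and of the USP41 exon that matches it, where there is one (blue) in the 6 poly I:C libraries; points are medians and bars run from the lowest to the highest library. USP41 has depth at the exons matching USP18 exons 8, 9 and 10, with highest values of 126, 130 and 61.9, and stays at or under 12.3 at the others.

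**Figure D3:**
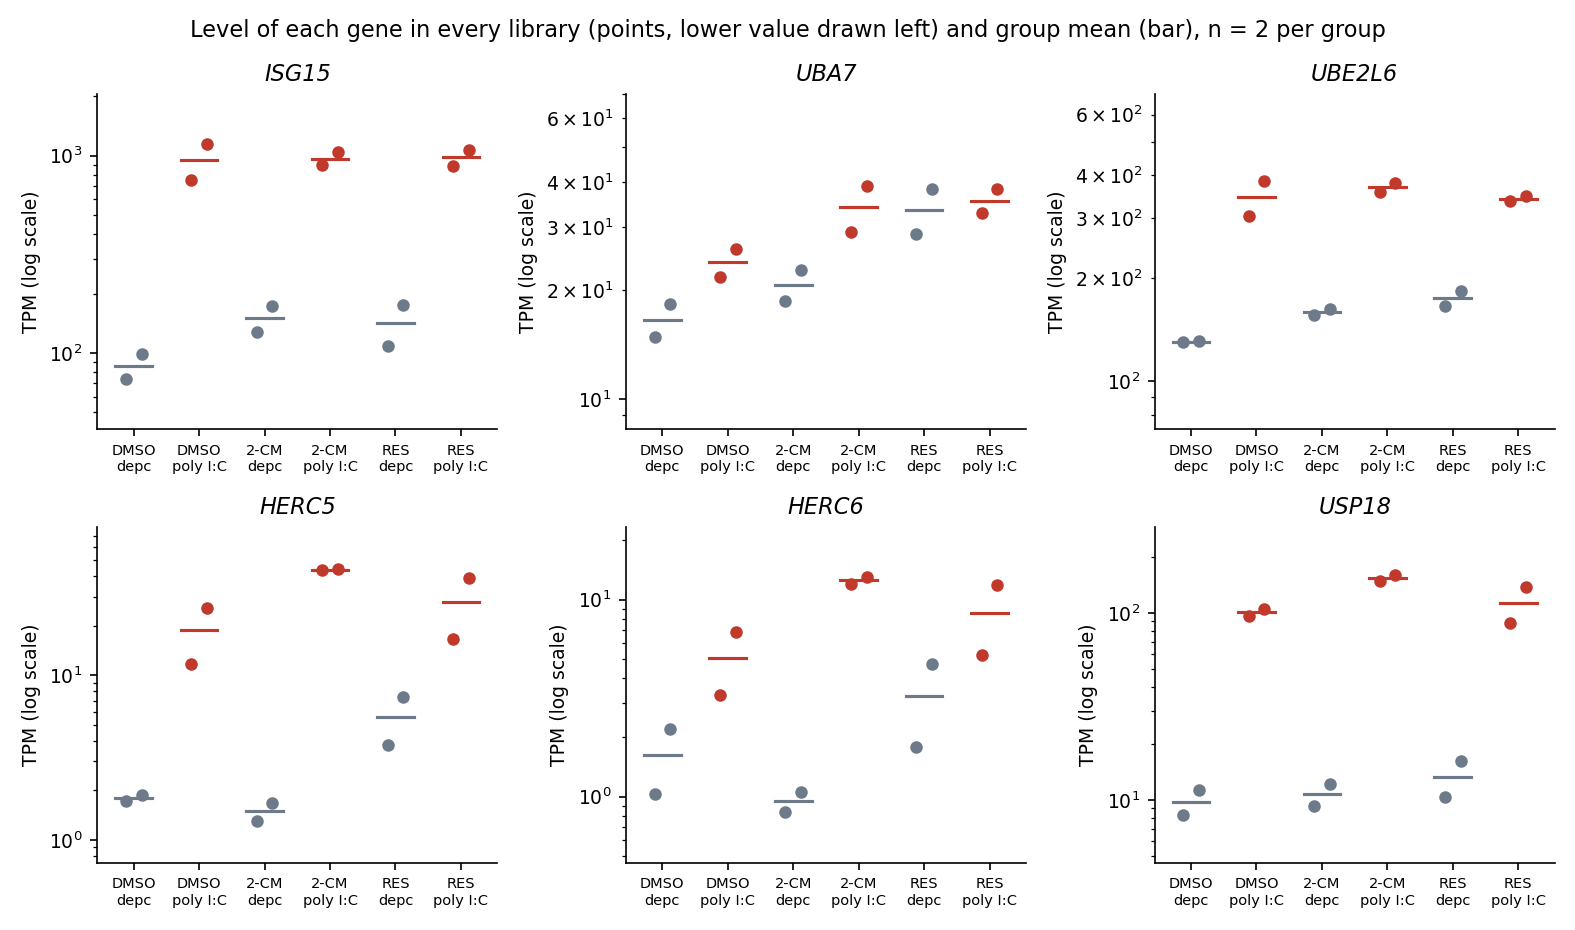
TPM of the 6 genes on log axes, 1 panel a gene, with the 6 groups along each axis; points are the 2 libraries of a group and bars their mean. Poly I:C (red) lies above depc (grey) under each compound for every gene but UBA7 under RES, where the pairs overlap.

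Under DMSO, 4 of the 6 genes were called higher with poly I:C (ISG15, USP18, HERC5 and UBE2L6) and none lower. Over all genes tested 0.797% were called higher and 3.28% lower, at an adjusted p under 0.05. Both poly I:C libraries exceeded both depc libraries in 6 of 6 members, against 11.5% of all genes. The median log2 difference of the members was 2.05, and that of all genes was -0.14. ISG15 ranked 20 and USP18 24 of all genes from the top. The split of all calls rested on the scaling: 137 were higher and 564 lower here, 88 and 37 with FPKM, 96 and 42 with upper-quartile scaling and 98 and 29 with median-of-ratios scaling. ISG15 and USP18 kept their calls with each library left out. HERC5 lost its call without DMSO depc replicate 1 (2.76), DMSO depc replicate 2 (2.68), DMSO poly I:C replicate 1 (2.18) and each of the 4 2-CM libraries (2.72), and UBE2L6 without either DMSO depc library (1.38). Both scalings took the call of UBE2L6 at 1.51 and 1.54, and a fit of the 4 DMSO libraries alone took all 4 calls. After adjustment for GC content UBA7 (0.91) and HERC6 (1.17) were called too, while the calls over all genes went from 701 to 2704 (1212 higher and 1492 lower).

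Under 2-CM all 6 were called higher. This comparison moved much of the transcriptome, since 37.5% of all genes were called higher and 11.8% lower, and in 62.6% both poly I:C libraries exceeded both depc libraries, as they did for all 6 members. The median log2 difference was 2.74 for the members and 0.61 for all genes. HERC5, USP18, HERC6 and ISG15 were ahead of all but 0.157%, 0.198%, 0.733% and 1.14% of genes, whereas 30.6% of genes had a larger value than UBE2L6 and 47.5% a larger one than UBA7. Of all calls, 6440 were higher and 2035 lower, against 4182 and 3407 with upper-quartile and 3482 and 4046 with median-of-ratios scaling, which moved the median of all genes to 0.18 and 0.03. UBE2L6 lost its call under those scalings, at 0.57 and 0.35, and UBA7 at 0.08 and, with the sign turned, -0.14; UBA7 also lost it with FPKM, with estimated reads as CPM and with no filter. The other 4 genes kept theirs, although ISG15 moved to 1.84 with median-of-ratios scaling, and HERC5 and HERC6 to 2.83 and 1.72 after GC adjustment. With single libraries left out, 1 member stayed called without 2-CM depc replicate 1 or 2-CM poly I:C replicate 2, and 2 without 2-CM depc replicate 2 or 2-CM poly I:C replicate 1, while the calls over all genes fell to between 37 and 46. USP18 alone was called in all of these, and the log2 differences of HERC5 stayed between 4.07 and 4.28, those of HERC6 between 2.71 and 2.88, those of ISG15 between 2.47 and 2.91 and those of UBE2L6 between 1.16 and 1.25. UBA7 ran from 0.48 to 0.89 and also lost its call without either DMSO depc library (0.69) or RES poly I:C replicate 1 (0.69).

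Under RES 3 members were called higher, USP18, ISG15 and UBE2L6, where 0.198% of all genes were called higher and 0.244% lower. In 5 of 6 members the poly I:C libraries were both above the depc libraries, against 6.05% of all genes. The median log2 difference was 1.62 for the members and -0.03 for all genes. HERC5 and HERC6, ahead of all but 0.273% and 0.826% of genes, had unadjusted p-values of 0.00177 and 0.0382 and did not pass after adjustment in limma. Of all calls 34 were higher and 42 lower here, but 32 and 4 with FPKM, 36 and 2 with upper-quartile scaling and 37 and 2 with median-of-ratios scaling; under both of the latter HERC5 gained a call (2.09), UBE2L6 lost its own (0.98, and also with FPKM at 1.06 and CPM at 1.05), and under median-of-ratios ISG15 did too (2.83). ISG15 also lost its call without RES poly I:C replicate 1 (2.68) or replicate 2 (2.95). UBE2L6 lost it in 10 of 12 left-out fits, all but those without a DMSO poly I:C library, at 0.89 without RES depc replicate 1, 1.04 without RES depc replicate 2, 0.99 and 0.94 without RES poly I:C replicates 1 and 2, and 0.96 without each DMSO depc or 2-CM library. With a replicate block UBE2L6 had an adjusted p of 0.0584. After adjustment for GC content 5 were called, HERC5 (1.86) and HERC6 (1.03) among them, while the calls over all genes went from 76 to 543 (228 higher and 315 lower).

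**Figure D4:**
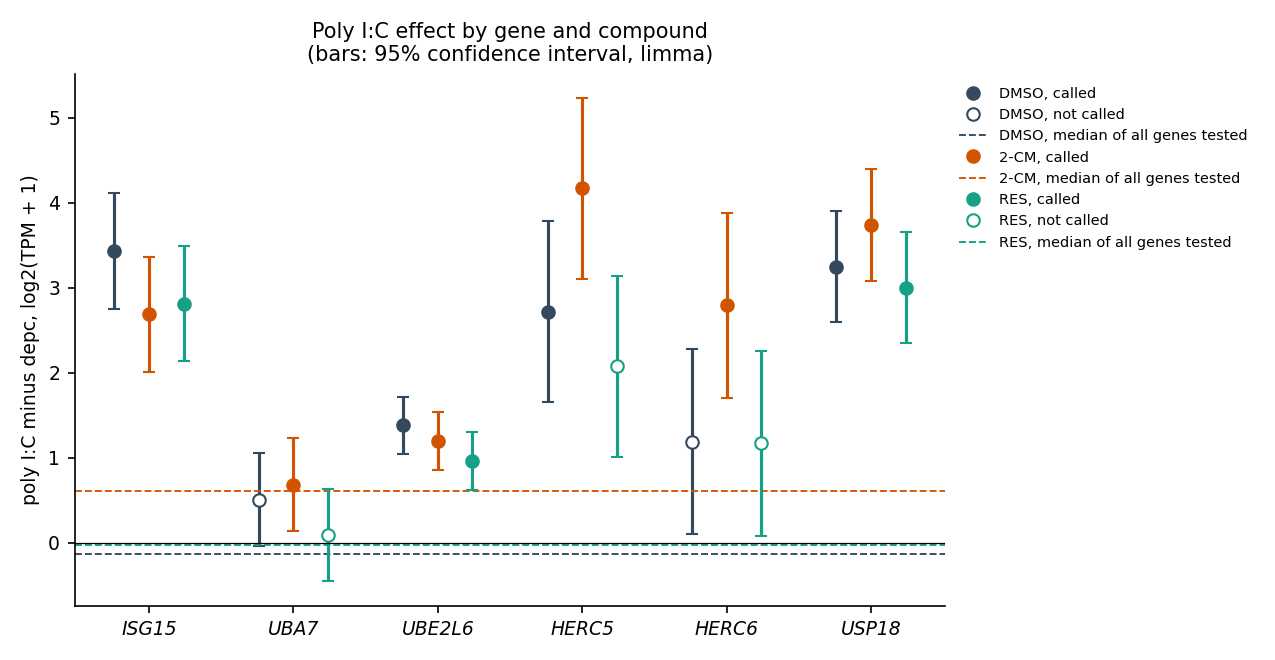
Log2 difference between poly I:C and depc for each gene under DMSO, 2-CM and RES, with 95% confidence intervals from limma; filled points passed the test, open points did not, and dashed lines are the medians of all genes tested. HERC5 and HERC6 have their highest points under 2-CM, 4.17 and 2.80, and UBA7 sits between 0.09 and 0.69.

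The authors' deposited table for DMSO gave log2 fold changes, read as poly I:C over depc, of 3.63 for ISG15, 3.59 for USP18, 3.51 for HERC5, 1.86 for HERC6, 1.63 for UBE2L6 and 0.59 for UBA7. This direction was set from the values themselves, as positive for interferon-induced genes. A shared direction of the members in these tables and in limma therefore carries no weight. UBA7 alone had an adjusted p above the threshold there (0.718), and HERC6, not called by limma here, had 0.0113. For 2-CM the authors' deposited table gave 4.02 for HERC5, 3.01 for USP18, 2.82 for HERC6, 1.79 for ISG15, 0.362 for UBE2L6 (adjusted p 0.0479) and -0.427 for UBA7 (adjusted p 0.0933). That sign of UBA7 is the one seen here under median-of-ratios scaling. For RES the authors' deposited table passed USP18 (3.16), ISG15 (2.74) and HERC5 (2.39, adjusted p 0.00174), while UBE2L6 (0.967) had an adjusted p of 0.999. Of the genes with an adjusted p in the authors' deposited tables, 0.751%, 23.0% and 0.266% were higher at under 0.05 for DMSO, 2-CM and RES.

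The make-up of the system changed along with its size. The summed TPM of the 6 genes was 235 to 413 with depc (median 327) and 1220 to 1677 with poly I:C (median 1520). UBE2L6 held 43.0% to 55.7% of that sum with depc and 21.5% to 24.9% with poly I:C. ISG15 held 31.4% to 47.6% with depc and 60.2% to 69% with poly I:C. USP18 went from a range of 2.50% to 4.88% to a range of 5.66% to 9.95%, and UBA7 from 5.76% to 9.23% down to 1.56% to 2.45%. None of these 4 pairs of ranges overlapped, while those of HERC5 (0.359% to 2.23% and 0.700% to 2.92%) and of HERC6 (0.229% to 1.43% and 0.197% to 0.873%) did. Shares of a common sum do not move independently, so these are not separate results. The share of UBE2L6 fell although its TPM rose under each compound. Relative to UBA7, the TPM of ISG15 was at 3.75 to 7.59 with depc and at 26.7 to 44 with poly I:C. Relative to UBE2L6, ISG15 was at 0.564 to 1.11 and at 2.49 to 3.21. These shares are within a library and so do not depend on the scaling between libraries. The members differ in GC content, however, along which replicates differed, and its part in the shares and ratios was not tested. ISG15 over HERC5, for example, was 29.4 and 98.3 in the DMSO poly I:C replicates. Shares and ratios were chosen after the values were seen and have no test.

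**Figure D5:**
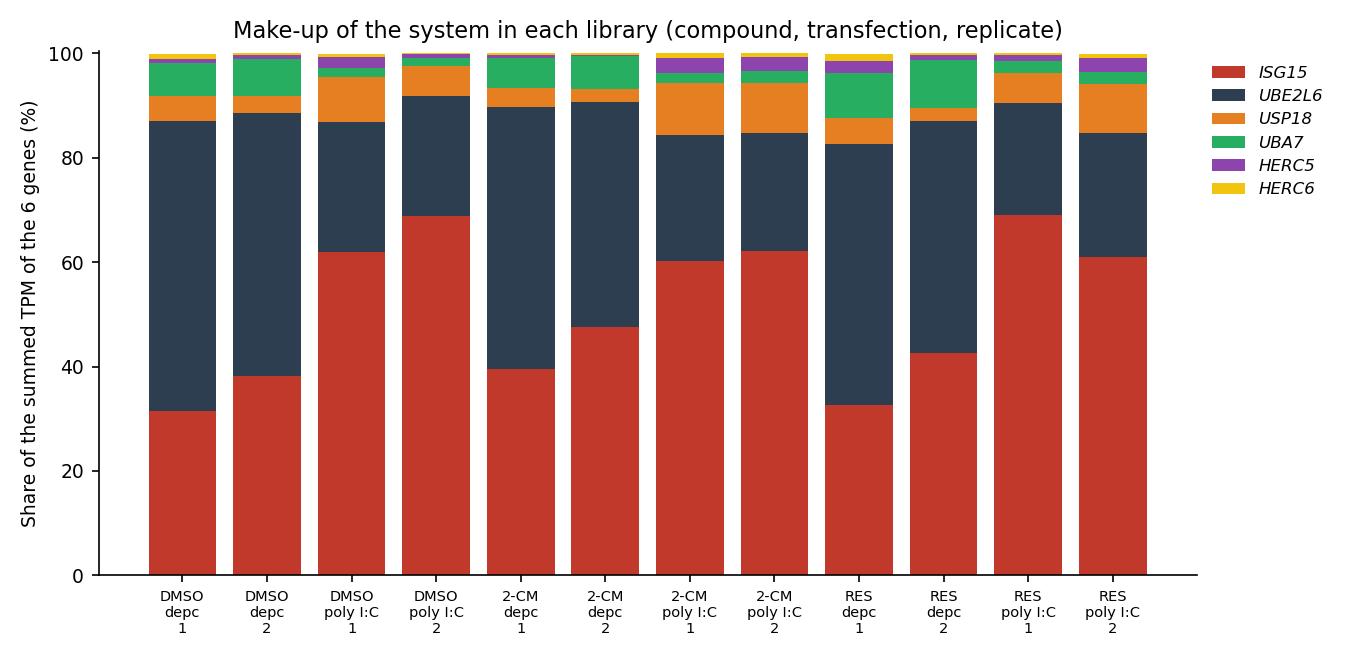
Share in percent of each gene in the summed TPM of the 6 genes, 1 bar a library, labelled by compound, transfection and replicate. The share of UBE2L6 is 43.0% to 55.7% in depc and 21.5% to 24.9% in poly I:C libraries, while ISG15 goes from at most 47.6% to at least 60.2%.

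To ask whether a compound altered the response, the log2 difference under DMSO was subtracted from the one under the compound; both such contrasts share the DMSO libraries. For 2-CM 0 members were called by limma, against 0.0116% of all genes, and 1 member had an unadjusted p under 0.05, where 29.7% of all genes did. HERC6 had the largest difference, 1.61 (95% interval 0.07 to 3.15, adjusted p 0.163), and HERC5 had 1.45 (-0.06 to 2.96, adjusted p 0.174). After GC adjustment the values were 0.55 for HERC6 and 0.16 for HERC5. USP18 had 0.49 (-0.44 to 1.42), UBA7 0.18 (-0.59 to 0.95), UBE2L6 -0.18 (-0.66 to 0.30) and ISG15 -0.75 (-1.71 to 0.21). The median of all genes was 0.68, so ISG15 was below 97.4% of genes and HERC6 below 19.2%. The signs of UBA7 and USP18 turned under upper-quartile scaling (-0.55 and -0.26) and median-of-ratios scaling (-0.80 and -0.50). Under the latter the differences of ISG15 and UBE2L6 were -1.76 and -1.19, and those of HERC5 and HERC6 were also lower than reported.

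For RES the difference of response was below 0 for all 6 members, and 0 members were called by limma, as were 0% of all genes. None of the 6 had an unadjusted p under 0.05, and 1.70% of all genes did. HERC5 had -0.64 (95% interval -2.15 to 0.87), ISG15 -0.62 (-1.58 to 0.34), UBE2L6 -0.42 (-0.90 to 0.07), UBA7 -0.41 (-1.19 to 0.36), USP18 -0.25 (-1.18 to 0.68) and HERC6 -0.02 (-1.56 to 1.52), all with an adjusted p of 1. The median of all genes was 0.11.

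Among poly I:C libraries, 0 members differed between 2-CM and DMSO by limma (0.105% of all genes called), and 2 had an unadjusted p under 0.05, HERC5 at 1.28 (95% interval 0.21 to 2.35, adjusted p 0.123) and HERC6 at 1.22 (0.13 to 2.30, adjusted p 0.13), where 34.2% of all genes did. The median of all genes in that comparison was 0.59. After GC adjustment HERC5 had 0.38 and HERC6 0.45. ISG15 had 0.05 (-0.63 to 0.73) and UBE2L6 0.11 (-0.23 to 0.45), both of which changed sign under FPKM and under either scaling. USP18 had 0.61 (-0.05 to 1.26) and UBA7 0.48 (-0.06 to 1.03), and both changed sign under either scaling. Between RES and DMSO with poly I:C, 0 members were called (0.157% of all genes), and UBA7, at 0.55 (0.00 to 1.09, adjusted p 0.374), was the 1 member with an unadjusted p under 0.05, where 13.4% of all genes had one. ISG15 and UBE2L6 had 0.07 and -0.00 there.

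Without poly I:C, 2-CM and DMSO gave 0 called members (0.0349% of all genes) by limma, with ISG15 at 0.80 (95% interval 0.12 to 1.48, adjusted p 0.721) the 1 member at an unadjusted p under 0.05, where 4.84% of all genes were. Between RES and DMSO without poly I:C, 0 members were called (1.03% of all genes) and 4 had an unadjusted p under 0.05, where 14.7% of all genes did. UBA7 had 0.96 (95% interval 0.42 to 1.51, adjusted p 0.0957), HERC5 1.17 (0.11 to 2.24, adjusted p 0.283), ISG15 0.69 (0.01 to 1.37, adjusted p 0.333) and UBE2L6 0.41 (0.07 to 0.75, adjusted p 0.228). After GC adjustment UBA7 (0.74, adjusted p 0.0144) and HERC5 (1.04, adjusted p 0.00875) passed in limma, where the calls over all genes went from 177 to 1933.

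Of 7 tested relatives of the members, 1 was called higher and 1 lower under DMSO, 3 and 1 under 2-CM and 0 and 0 under RES, where 4 had an unadjusted p under 0.05 in limma, as did 14.0% of all genes. Over all genes 0.797%, 37.5% and 0.198% were called higher and 3.28%, 11.8% and 0.244% lower, so the share of relatives called under 2-CM was near that of all genes. The medians of the relatives were -0.45, 1.15 and 0.20, against -0.14, 0.61 and -0.03 for all genes, and USP41, which shares reads with USP18, is among those called higher. UBE2L3, the ubiquitin-directed relative of UBE2L6, was called higher under 2-CM alone (1.15, adjusted p 0.0289 in limma), from 40.6 ± 5.79 to 91.0 ± 4.26 TPM (SD, n = 2). UBA1, the main ubiquitin activating enzyme, fell from 545 ± 32.1 to 273 ± 53.2 TPM under DMSO (-1.01, adjusted p 0.0359) and from 667 ± 32.5 to 314 ± 10.2 TPM under 2-CM (-1.09, adjusted p 0.0239). Of the other HERC genes, HERC4 was called under 2-CM (2.22, adjusted p 0.03), while HERC1, HERC2 and HERC3 were not called in any poly I:C comparison and lay between -1.20 and -0.35 under DMSO. UBD, another ubiquitin-like protein induced by cytokines, was listed at 0 in all 12 libraries.

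Of 12 tested partners (ligases, other proteases, docking partners of USP18 and a receptor), 2 were called higher and 1 lower under DMSO, 6 and 1 under 2-CM and 0 and 0 under RES, where 4 had an unadjusted p under 0.05 in limma (14.0% of all genes). The shares of all genes called are those given for the relatives. TRIM25, a ligase of the RIG-I pathway that is itself modified by ISG15, rose from 28.4 ± 1.31 to 82.2 ± 2.22 TPM (SD, n = 2) under DMSO and from 27.9 ± 1.25 to 130 ± 1.02 TPM under 2-CM. STAT2, which holds USP18 at the receptor, rose under DMSO by 1.07 (adjusted p 0.0224), and USP5, a deubiquitinase that can also bind ISG15, fell under DMSO (-0.99) and 2-CM (-1.23). Under 2-CM the largest rises were those of USP16 (2.27), TRIM25 (2.18) and USP14 (1.84), proteases in the first and last case. The partner list had a median log2 difference of -0.19 under DMSO, 1.40 under 2-CM and 0.04 under RES, beside -0.14, 0.61 and -0.03 for all genes.

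Among 17 reported targets of ISG15, 4 were called higher and 2 lower under DMSO, 11 and 3 under 2-CM and 3 and 1 under RES. Over all genes 0.797%, 37.5% and 0.198% were called higher and 3.28%, 11.8% and 0.244% lower. IFIT3, an antiviral protein, had 5.09, 6.45 and 3.84 under DMSO, 2-CM and RES, and its relative IFIT1 had 4.75, 6.76 and 4.59. MX1, an antiviral GTPase, went from 13.9 ± 0.152 to 265 ± 8.46 TPM (SD, n = 2) under DMSO, and it had a log2 difference of 3.44 under RES. DDX58, the sensor RIG-I, was among the largest under 2-CM (5.11). PLCG1, a phospholipase, fell under DMSO (-0.85), and the kinase MAPK3 and the factor IRF3 fell under 2-CM (-1.11 and -0.95). The medians were 1.03, 2.41 and 0.72, against -0.14, 0.61 and -0.03 for all genes. Overlaps of these genes with others were not examined.

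The factors that act on the ISRE were also measured, and the shares of all genes called are again those above. Of 8, under DMSO 3 were called higher and 0 lower: IRF9, from 1.44 ± 0.00716 to 47.7 ± 13.4 TPM (SD, n = 2; 4.29), IRF7 (2.64) and STAT2 (1.07). Under 2-CM 6 were higher and 1 lower, with IRF9 (4.35) and IRF2 (2.67) among the largest and IRF3 lower (-0.95). Under RES IRF9 alone was called (3.13, adjusted p 0.00171 in limma). STAT2 and IRF3 each stand in more than 1 of these lists.

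The machineries of other ubiquitin-like modifiers gave few calls outside 2-CM. Of 6 ubiquitin genes and activating enzymes, UBA1 alone was called under DMSO, lower. In the lists for SUMO (12 genes), NEDD8 (7), UFM1 (6) and the autophagy modifiers (11), 0 genes were called under DMSO and 0 under RES by limma, and 0, 1, 0 and 0 had an unadjusted p under 0.05 in each of these comparisons, where 19.7% and 14.0% of all genes did. Under 2-CM, where 37.5% of all genes were called higher, 7, 4, 4 and 6 of them were called higher and 0, 1, 1 and 1 lower. UBA3 (2.51) and NAE1 (2.44), both subunits of the NEDD8 activating enzyme, UFM1 (2.47) and ATG4C (2.38), a protease of the autophagy modifiers, were among the largest, with DCUN1D1 (2.18), UFL1 (2.19), UBA2 (2.29), SENP6 (2.12), ATG12 (2.28) and ATG4A (1.92). UBA6 (2.68) was the ubiquitin activating enzyme called higher, and UBE2M (-0.97), UFSP1 (-0.86) and GABARAP (-0.73) were called lower. The medians under 2-CM were -0.23 for ubiquitin, 1.41 for SUMO, 1.66 for NEDD8, 1.85 for UFM1 and 1.64 for the autophagy modifiers.

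The tested genes whose profile over the 12 libraries was most like the mean of the 6 members, by Pearson's r on log2(TPM + 1) among 11903 genes with a mean of 5 TPM or more in their highest group, were RTP4 (0.992), IFIT2 (0.992), TRIM25 (0.989), OAS3 (0.989) and BISPR (0.988). Because the libraries fall into 2 clusters by transfection and share depth and GC content within a library, r was also taken within each. It was 0.965 and 0.824 for RTP4, 0.923 and 0.909 for IFIT2, 0.924 and 0.930 for TRIM25, 0.989 and 0.861 for OAS3 and 0.846 and 0.923 for BISPR, over 6 depc and 6 poly I:C libraries. Most like ISG15 alone were IFI6 (0.991), CCL5 (0.988), ETV7 (0.985), OASL (0.984) and BATF2 (0.984). For these r was 0.611 to 0.901 within depc and 0.584 to 0.837 within poly I:C libraries. IFI6 was also close to ISG15 in level, at 68.5 to 180 TPM with depc and 608 to 808 TPM with poly I:C. These values describe likeness in these libraries and carry no test.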

How the data were processed

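Polyadenylated RNA of 12 NS-SV-AC libraries was sequenced as paired reads of 101 bases from a stranded kit, per the labels' protocols. The submitters' processing notes name bcl2fastq 2.20, HISAT2 2.1.0, StringTie, DESeq2 and build hg38. Per the file headers, StringTie 2.0.4 estimated coverage, FPKM and TPM for GENCODE 32 transcripts, with no strand option. The authors also deposited tables with log2 fold changes and adjusted p-values, whose fitted libraries are not given in the sources used here. The deposited normalised-count means were not used.

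The members and lists were chosen with earlier results of these data known. Transcript TPM was summed per gene. Counts were not used here, so genes with TPM of at least 1 in at least 2 of 12 libraries (17185 of 60609) were tested on log2(TPM + 1) with limma 3.58.1 (trend; R 4.3.3) over 6 group means, 6 residual degrees of freedom and a prior of 2.74. A call is a Benjamini-Hochberg adjusted p under 0.05 over all genes tested. Intervals are at 95%. SDs are over 2 libraries. Estimated reads are coverage times length over read length (Python 3.11.15). Named beyond the members were, per list and poly I:C comparison, up to 3 called genes with the largest change in each direction, the relatives, and the 5 genes of highest r; comparisons marked as such were chosen after the values were seen. The fit was run on simulated data with noise drawn separately for each gene and library. Such data lack the deviations that these libraries share, so they cannot show that the calls hold here. Replicate numbers do not pair the libraries over all groups. Alternatives were FPKM, upper-quartile and median-of-ratios scaling, other filters and pseudocounts, CPM of estimated reads, fits of single comparisons, a replicate block, GC adjustment and each library left out. Some genes of the lists are counted but not reported by name here.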

Additional observations from a re-analysis of the deposited data

How the results depend on the processing

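Each group has 2 libraries, which limits precision, and HERC6 and HERC5 had 78 and 127 estimated reads in their lowest library. In the 3 comparisons of poly I:C with depc, all members but UBA7 kept their direction under every alternative run, and USP18 kept its call under all but the fits of single comparisons for DMSO and RES. The fit of only the groups compared, with 2 residual degrees of freedom, called 0 members under DMSO and 0 under RES, with the log2 values unchanged, and 6 under 2-CM, where it called 11850 genes. Leaving out single libraries left 2 to 4 members called under DMSO, 1 to 6 under 2-CM and 1 to 3 under RES. GC adjustment called 5 under RES, with and without the block, and 2 (3 with the block) between RES and DMSO with depc. Over all genes it called 543 under RES (454 with the block). Between RES and DMSO with depc it called 1933 without the block. Calls over all genes ran from 6 to 3059 under DMSO (701 as reported), from 37 to 11850 under 2-CM (8475) and from 0 to 1435 under RES (76). The split under 2-CM was 2458 higher and 2693 lower after GC adjustment and 421 and 228 with no filter, and that under DMSO was 113 and 131 with CPM and 1212 and 1492 after GC adjustment. For RES it was 41 and 28 with CPM, 25 and 14 with the block, 48 and 130 with no filter and 42 and 83 with a TPM minimum of 5.

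The replicate block called 4, 6 and 2 members under DMSO, 2-CM and RES and changed no other call than that of UBE2L6 under RES (0.96, adjusted p 0.0584). Over all genes it called 346, 8895 and 39, beside 701, 8475 and 76 as reported. Same-numbered libraries deviated together in 10 pairs of groups (r 0.153 to 0.761) and against each other in the 5 pairs with RES poly I:C (r -0.796 to -0.307), so the numbers do not pair the libraries over all 6 groups. A block with the RES poly I:C numbers crossed, chosen after seeing the data, called 6 members under DMSO, 5 under RES, 3 for the 2-CM difference of response, 4 for 2-CM and 1 for RES with poly I:C, and 2 for RES with depc. Calls over all genes rose in each of these comparisons as well, from 701 to 3059, from 76 to 1435, from 2 to 7297 and from 18 to 8707 in the first 4.

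The following log2 values turned sign, in comparisons in which none but the first was called; the cause was not tested. UBA7 under 2-CM was -0.14 with median-of-ratios scaling. In the difference of response between 2-CM and DMSO, UBA7 was -0.14 with FPKM, -0.55 with upper-quartile scaling, -0.80 with median-of-ratios scaling and -0.29 with CPM, and USP18 was -0.26 and -0.50 with the scalings and -0.10 after GC adjustment, with or without the block. Between 2-CM and DMSO with poly I:C, ISG15 was -0.25 with FPKM, -0.64 and -0.73 with the scalings, -0.22 with CPM and -0.16 after GC adjustment, with or without the block. UBE2L6 was -0.20, -0.58, -0.67, -0.19 and -0.16 under the same settings, UBA7 -0.18 and -0.27 and USP18 -0.077 and -0.17 with the scalings. Between RES and DMSO with poly I:C, ISG15 was -0.015 with FPKM, -0.25 and -0.27 with the scalings, -0.010 with CPM and -0.15 after GC adjustment, and USP18 -0.18, -0.20 and, after GC adjustment, -0.10. HERC5 between 2-CM and DMSO with depc was 0.22 after GC adjustment. With single libraries left out, values that turned sign ranged as follows. UBA7 ran from -0.11 to 0.29 under RES and from -0.026 to 0.39 in the 2-CM difference. HERC6 ran from -0.54 to 0.50 and USP18 from -0.57 to 0.072 in the RES difference. With poly I:C, ISG15 ran from -0.25 to 0.35 and UBE2L6 from -0.062 to 0.27 for 2-CM. For RES, ISG15 ran from -0.23 to 0.37, UBE2L6 from -0.17 to 0.17, HERC5 from -0.061 to 1.12 and USP18 from -0.19 to 0.45. USP18 for 2-CM with depc ran from -0.083 to 0.32.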
